A study of Mus musculus with 24 samples.

Results

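Astrocytes are the glial cells that take up transmitter and potassium around synapses, line blood vessels with their endfeet and supply neurons with metabolites. 10 genes that mark these cells, Aqp4, Gfap, Slc1a2, Slc1a3, Aldh1l1, Gja1, Gjb6, Aldoc, S100b and Slc4a4, were taken by symbol from 2 tables of gene counts, and all 10 were found among the 55254 genes listed. Their levels were read in nuclear RNA of mouse hippocampus, in 24 libraries. Nuclei had been stained for NeuN, a protein of neuronal nuclei encoded by Rbfox3, and sorted into NeuN+ and NeuN- nuclei, the latter holding glia and other non-neuronal cells.

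All mice were males on a C57BL/6N background and aged 6 months. Each fraction held 3 libraries of each of 4 genotypes: wild type (WT), Mutyh-/-, Ogg1-/-, and the double knockout that lacks both genes (DKO), obtained by crossing the single knockouts. Ogg1 removes oxidised guanine from DNA and Mutyh removes adenine mispaired with it. Per the study's methods, hippocampi of several animals of a genotype were pooled before sorting. The paper describes its data in general as coming from 3 or more independent biological replicates. Whether the 3 RNA libraries of a group came from separate pools is not stated, so p-values measure the spread between libraries, which may be technical. The question put to these genes was how their nuclear RNA is divided between the sorted fractions and whether it differs between genotypes.

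The libraries held between 56563586 and 96192142 counts, and no pair of libraries of a group held the same values. According to the labels the fractions were sequenced on separate lanes, and so the lane cannot be told apart from the fraction. Counts of the targeted genes did not mark the deletions: Ogg1 lay between 6.43 and 7.12 CPM (counts scaled by library size) in NeuN- libraries labelled Ogg1-/- and between 6.21 and 7.0 in WT, and Mutyh lay between 10.1 and 10.5 CPM in those labelled Mutyh-/- and between 2.60 and 3.07 in WT. Counts summed over a gene do not show which exons were read, so the genotypes below are those of the labels. The sort was checked on 8 neuron markers. Their summed level in WT was 5708 to 6041 CPM in NeuN+ and 584 to 655 CPM in NeuN- nuclei. Of the 8, 7 were lower in NeuN- nuclei of WT, and Prox1 was higher there, at a mean of 133 CPM against 105 in NeuN+. In bulk libraries fewer cells of a type and less RNA per cell cannot be told apart.

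Slc1a2 and Slc1a3 encode the glutamate transporters GLT-1 and GLAST, which clear glutamate from the synaptic cleft, and Slc4a4 encodes a sodium bicarbonate cotransporter. Aqp4 encodes the water channel of astrocyte endfeet, and Gja1 and Gjb6 encode connexin 43 and connexin 30, the gap junction proteins that couple astrocytes to each other. Gfap encodes the intermediate filament protein used most widely to stain astrocytes, and S100b a calcium-binding protein. Aldoc encodes the brain form of the glycolytic enzyme aldolase, and Aldh1l1 a folate enzyme (10-formyltetrahydrofolate dehydrogenase). In GRCm38 Gja1 and S100b both lie on chromosome 10, Gfap and Aldoc both on chromosome 11, and the other 6 on a chromosome each. Aldh1l1 lies on chromosome 6 (90486427 to 90600203), 22.7 Mb from Ogg1.

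RefSeq promoter windows (GRCm38.p6) were matched for 9 of the 10 genes, in 11 windows of 250 bases before an annotated start. The windows of Aldh1l1 and Gfap are shown because these 2 genes gave the largest differences between genotypes in NeuN- nuclei, and that of Slc1a3 because it holds a match to a searched motif, in capitals. They are chr6:90550543-90550792 on the plus strand for Aldh1l1, chr11:102897201-102897450 on the minus strand for Gfap and chr15:8710808-8711057 on the minus strand for Slc1a3. Those of Aldh1l1 and Gfap lie inside the annotated span of their gene.
Aldh1l1: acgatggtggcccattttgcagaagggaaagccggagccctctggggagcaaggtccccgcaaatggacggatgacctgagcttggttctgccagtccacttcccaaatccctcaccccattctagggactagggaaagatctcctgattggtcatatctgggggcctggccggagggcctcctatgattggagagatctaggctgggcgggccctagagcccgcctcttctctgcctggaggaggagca
Gfap: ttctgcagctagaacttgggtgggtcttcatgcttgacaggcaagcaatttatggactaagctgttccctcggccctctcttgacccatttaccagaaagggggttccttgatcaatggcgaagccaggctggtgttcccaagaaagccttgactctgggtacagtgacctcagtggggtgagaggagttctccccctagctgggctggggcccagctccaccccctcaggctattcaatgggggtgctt
Slc1a3: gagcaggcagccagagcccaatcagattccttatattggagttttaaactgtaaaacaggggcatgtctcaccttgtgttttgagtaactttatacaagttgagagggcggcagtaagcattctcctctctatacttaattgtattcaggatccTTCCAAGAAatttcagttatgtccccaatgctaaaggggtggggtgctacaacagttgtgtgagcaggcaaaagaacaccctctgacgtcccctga
The motif was the STAT site TTCNNNGAA, which reads as itself on the opposite strand, and the Slc1a3 match began 96 bases before the start. Both strands of all windows were also searched for the NFI site and for the SOX sites ACAATG and ACAAAG. Among the 11 windows STAT matches were found in 2, one each of Slc1a3 and Aldoc, against 7.02% of all 32851 windows of the same length. The other 3 motifs, held by 1.22%, 10.7% and 16.5% of all windows, had no match in the 11.

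The 10 genes differed widely in level in WT NeuN- nuclei. Levels are compared between genes as FPKM, which is the CPM divided by the gene's length in kilobases, taken first as the length of its exons, with library sizes scaled jointly over both fractions. Slc1a2 was the most abundant at 166 ± 18.7 FPKM (SD, n = 3), followed by Slc1a3 at 61.4 ± 2.03 and Slc4a4 at 44.5 ± 2.95, and the libraries of these 3 did not overlap with those of the next gene in the order. Aldoc (21.2 ± 2.16) and Aldh1l1 (19.6 ± 2.53) overlapped with each other. The remaining 5 lay close together, from Gjb6 at 10.5 ± 2.41 through S100b, Gja1 and Aqp4 to Gfap at 8.77 ± 1.01, and each overlapped with its neighbour in the order.

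Nuclear RNA is rich in introns, and whether introns were counted is not stated, so the same levels were also taken by the length of the whole gene. Slc1a2 kept the highest mean, at 16.5 ± 1.86 FPKM, but overlapped with Aldoc, the shortest of the 10 genes, at 14.4 ± 1.47. Slc4a4, the longest, moved from the third place to the ninth, and Aldh1l1 from the fifth to the tenth, at 0.779 ± 0.101. The order of the levels below Slc1a2 therefore depended on the length used. In NeuN+ nuclei of WT the order by exon length was led by Slc4a4 (28.6 ± 1.88) and Slc1a2 (21.6 ± 2.07), all others lay at or below 2.84, and Gjb6 was lowest at 0.238 ± 0.0358.

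All 10 genes were higher in NeuN- than in NeuN+ nuclei in every genotype, with no overlap between the libraries. 9 of the 10 passed the limits of adjusted p under 0.05 and a log2 difference above 1 in each of the 4 genotypes, in the quasi-likelihood test of edgeR fitted over all 24 libraries. The share of all 33523 genes tested that passed as higher in NeuN- was 21.6% for WT, 22.1% for Mutyh-/-, 22.2% for Ogg1-/- and 23.6% for DKO, and libraries did not overlap in this direction for 38.2%, 38.4%, 38.2% and 38.4% of genes. The gene that missed the limit each time was Slc4a4, through its size and not its p.

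The connexins differed most. Gjb6 had 0.746, 0.583 and 0.578 CPM in the WT NeuN+ libraries and 22.9, 26.2 and 35.4 CPM in the WT NeuN- libraries, on the joint scale, a log2 difference of 5.47 ± 0.29 (SE). Its NeuN+ values rest on 25 to 53 counts per library over all genotypes, the fewest of the 10. Gja1 had 3.97, 2.77 and 2.16 CPM in NeuN+ against 91.4, 91.3 and 109 CPM in NeuN-, and the log2 difference was 5.03 ± 0.24. In the knockouts these 2 genes again had the largest differences of the 10, from 5.78 to 6.08 for Gjb6 and from 5.47 to 5.89 for Gja1.

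Slc1a3, Aqp4 and Aldh1l1 formed a middle group. Slc1a3 had 28.5, 23.9 and 20.5 CPM in WT NeuN+ and 517, 512 and 544 CPM in WT NeuN-, which differed on the log2 scale by 4.43 ± 0.16. Aqp4 differed by 4.28 ± 0.15 and Aldh1l1 by 4.21 ± 0.15. The NeuN+ level was 4.63% of the NeuN- level for Slc1a3, 5.14% for Aqp4 and 5.41% for Aldh1l1.

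Aldoc (3.27 ± 0.14), Gfap (3.24 ± 0.14), Slc1a2 (2.94 ± 0.12) and S100b (2.74 ± 0.14) had smaller log2 differences in WT, and their NeuN+ levels were 10.4% to 14.9% of those in NeuN-. Slc1a2 had 314, 278 and 261 CPM in NeuN+ and 2015, 2052 and 2458 CPM in NeuN-.

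Slc4a4 stood apart. It had 310, 288 and 329 CPM in WT NeuN+ and 454, 473 and 516 CPM in WT NeuN-, a log2 difference of 0.64 ± 0.10 (adjusted p = 6.35e-06), with a NeuN+ level of 64.2% of the NeuN- level. In the knockouts the difference was 0.67, 0.94 and 0.70 for Mutyh-/-, Ogg1-/- and DKO. The groups did not overlap in any genotype.

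**Figure D1:**
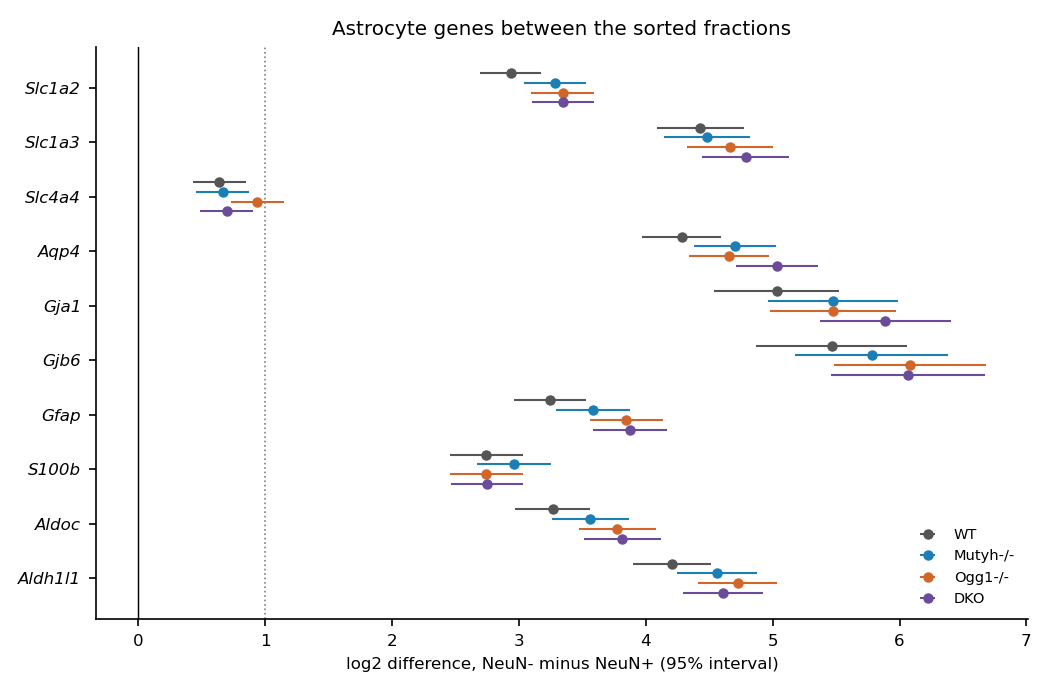
Log2 difference between NeuN- and NeuN+ nuclei (x axis, points with 95% intervals from the joint fit) for each of the 10 astrocyte genes (y axis) in the 4 genotypes (colours), with 3 libraries per group. The dotted line is the limit of 1: Slc4a4 lies below it in every genotype (0.64 to 0.94), and the other 9 lie between 2.74 and 6.08.

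Markers of other non-neuronal cells were read in NeuN+ nuclei of WT at 39.7% of their summed NeuN- level for 5 genes of choroid plexus and ependyma, 17.0% for 5 microglia genes, 9.42% for 3 endothelial genes, 3.66% for 3 genes of oligodendrocyte precursors and 1.94% for 5 oligodendrocyte genes. Genes within 2 of these lists differed. Kl had 11 CPM in NeuN+ against 5.44 in NeuN- (edgeR adjusted p = 0.105), and the other 4 choroid plexus and ependyma genes were higher in NeuN-. P2ry12 had 38.7 CPM in NeuN+ against 90.2 in NeuN-, and Cx3cr1 42.7 against 177. Csf1r had 3.14 against 201, Tmem119 0.0925 against 27.1 and Aif1 0.697 against 4.5. The summed shares of these 2 lists thus rest on few genes. The source of the reads in NeuN+ libraries was not tested.

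Among 40 other astrocyte genes, such as Glul (glutamine synthetase) and Kcnj10 (the potassium channel Kir4.1), 38 passed as higher in NeuN- nuclei of WT and 0 as lower, with a median log2 difference of 4.00, close to the 3.74 of the 10 genes and against 0.01 over all genes tested. In WT NeuN- nuclei the highest of the 40 by exon length were Gpc5 (465 ± 15.1 FPKM) and Sparcl1 (129). The lowest were Etnppl (2.09 ± 0.724) and Chrdl1 (0.58 ± 0.0724). Gpc5 holds 4453 exon bases in a gene that runs from 115092215 to 116525179 on chromosome 14. Levels of this list and of the 2 further lists below were not taken by whole-gene length. Their order may depend on the length used, as that of the 10 genes did.

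The comparison of each knockout with WT was made within a fraction, on CPM scaled within that fraction, and a gene was called at adjusted p under 0.05 with an absolute log2 fold change above 0.5. In NeuN- nuclei 1 of the 10 genes was called, Aldh1l1, which was higher in the libraries labelled Ogg1-/- than in WT. For Ogg1-/- 0.129% of the 31863 genes tested were called higher and 0.229% in either direction. No gene of the 10 was called in Mutyh-/- or DKO, where 0.273% and 0.116% of genes were called in either direction. At an unadjusted p under 0.05, 1, 6 and 4 of the 10 were higher in the same order of genotypes (Mutyh-/-, Ogg1-/-, DKO), against 6.78%, 5.75% and 6.06% of all genes. None of the 10 was lower at that p, where 6.9%, 6.08% and 6.31% of all genes were. DESeq2 called 0, 2 and 1 of the 10 for the 3 genotypes. The share of all genes that DESeq2 called is not given here. This count and the DESeq2 counts below therefore cannot be read against a background.

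Aldh1l1 had 82.3, 103 and 105 CPM in the WT NeuN- libraries and 142, 144 and 130 CPM in those labelled Ogg1-/-, and the groups did not overlap. The log2 fold change was 0.52 (95% interval 0.31 to 0.73), a ratio of 1.43, with an adjusted p of 0.0483. Mutyh-/- libraries had 96.5, 97.5 and 105 CPM and DKO libraries 117, 94.2 and 111 CPM, and both overlapped with WT (log2 fold changes 0.04 and 0.15, adjusted p 0.891 and 0.561). The rise in Ogg1-/- lost its call when the replicate number was added to the fit as a block (adjusted p = 0.0738) and when any library was left out: without any one of them the adjusted p lay between 0.0585 and 0.216, and with WT replicate 1, the lowest WT library, left out the log2 fold change was 0.41.

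3 annotated genes overlap Aldh1l1, and reads of overlapping genes may not be told apart, since neither the strand setting nor the treatment of overlaps is stated. Gm15756, an antisense gene that shares 499 exon bases with Aldh1l1, had a log2 fold change of 0.51 in Ogg1-/- NeuN- nuclei (adjusted p = 0.0896), and Gm45901, on the same strand with 105 shared exon bases, had 0.43 (adjusted p = 0.372). The third, Gm44236, had 23.6 counts per NeuN- library on average and a log2 fold change of 0.54 (adjusted p = 0.619).

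Gfap had 37.9, 37.7 and 45.7 CPM in the WT NeuN- libraries. The values were 48.1, 53.5 and 49.5 in Mutyh-/-, 54.7, 64.6 and 54.3 in Ogg1-/- and 53.9, 64.9 and 54.3 in DKO. Every library of each knockout therefore lay above all 3 WT libraries, and those of Ogg1-/- and DKO also above all of Mutyh-/-. Of all genes 8.05% were higher without overlap in Ogg1-/- than in Mutyh-/-, and 6.83% in DKO than in Mutyh-/-. The log2 fold changes were 0.32 (95% interval 0.10 to 0.53, adjusted p = 0.216), 0.52 (0.30 to 0.73, adjusted p = 0.0507) and 0.51 (0.30 to 0.73, adjusted p = 0.0725), so that no knockout passed the test. With DESeq2, with the likelihood ratio test or without the filter on low counts Gfap was called in both Ogg1-/- and DKO.

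The 3 transporters had positive log2 fold changes in Ogg1-/- and DKO and none was called. Slc4a4 had 495, 519 and 563 CPM in WT NeuN- nuclei and 743, 779 and 637 in Ogg1-/-, with no overlap, a log2 fold change of 0.45 (0.20 to 0.71, adjusted p = 0.153). DKO libraries had 586, 620 and 669 CPM, also above all WT libraries (0.25, adjusted p = 0.41), and Mutyh-/- libraries spread from 474 to 683. Slc1a2 had 2194, 2253 and 2681 CPM in WT, 2847, 3351 and 2558 in Ogg1-/- and 2831, 2977 and 2833 in DKO. Its log2 fold changes were 0.30 in Ogg1-/- (adjusted p = 0.344), where 1 library lay below the highest of WT, and 0.28 in DKO (adjusted p = 0.372), where none did. Slc1a3 had 563, 562 and 593 CPM in WT and 646, 696 and 624 in Ogg1-/-, and its log2 fold changes were 0.20 (adjusted p = 0.401) and, in DKO, 0.13 (adjusted p = 0.562).

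Gja1 and Gjb6, the connexins, and Aqp4 were not called either. Gja1 had 99.5, 100 and 119 CPM in WT NeuN- nuclei and 126, 122 and 125 in DKO, with no overlap, a log2 fold change of 0.23 (0.05 to 0.41, adjusted p = 0.309). Aqp4 had 60.8, 58.6 and 70.9 CPM in WT and 81.1, 79.5 and 68.9 in DKO, which overlapped (0.27, 0.07 to 0.47, adjusted p = 0.293). In Ogg1-/- the log2 fold changes were 0.16 for Gja1 and 0.18 for Aqp4. Gjb6 spread widely, with 25.0 to 38.6 CPM in WT and 27.1 to 49.3 in DKO, and its interval for Ogg1-/- ran from -0.16 to 0.78.

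Of the remaining pair, Aldoc had 71.5, 71.2 and 84.5 CPM in WT and 93.0, 100 and 78.4 in Ogg1-/-, an overlap with a log2 fold change of 0.26 (adjusted p = 0.371). S100b had 18.7, 16.5 and 15.3 CPM in WT and 16.7, 17.4 and 15.4 in Ogg1-/-, and was the 1 gene of the 10 with a negative log2 fold change in Ogg1-/- (-0.03, 95% interval -0.30 to 0.23) and in DKO (-0.05, -0.31 to 0.22). In Ogg1-/- the interval of S100b lay below the 0.52 of Aldh1l1.

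Over the 10 genes the median log2 fold change in NeuN- nuclei was 0.05 for Mutyh-/-, 0.28 for Ogg1-/- and 0.24 for DKO, against values within 0.01 of 0 over all genes. Over the alternatives these medians ran from 0.01 (without Mutyh-/- replicate 2) to 0.12 (without Mutyh-/- replicate 3) in Mutyh-/-, from 0.18 (without Ogg1-/- replicate 2) to 0.38 (without WT replicate 3) in Ogg1-/- and from 0.15 (without WT replicate 1) to 0.31 (without WT replicate 3) in DKO. The number with a positive sign was 6, 9 and 9, where 48.8%, 50.2% and 51.5% of all genes were positive. The groups did not overlap, with the knockout higher, for 1, 4 and 5 genes, against 9.02%, 9.12% and 7.8% of all genes. Gfap was the gene in Mutyh-/-, Gfap, Aldh1l1, Slc4a4 and Slc1a3 were those in Ogg1-/-, and Gfap, Slc4a4, Slc1a2, Slc1a3 and Gja1 those in DKO. The 3 comparisons share their WT libraries, so their signs are not independent, and the 10 genes are read from the same cells.

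**Figure D2:**
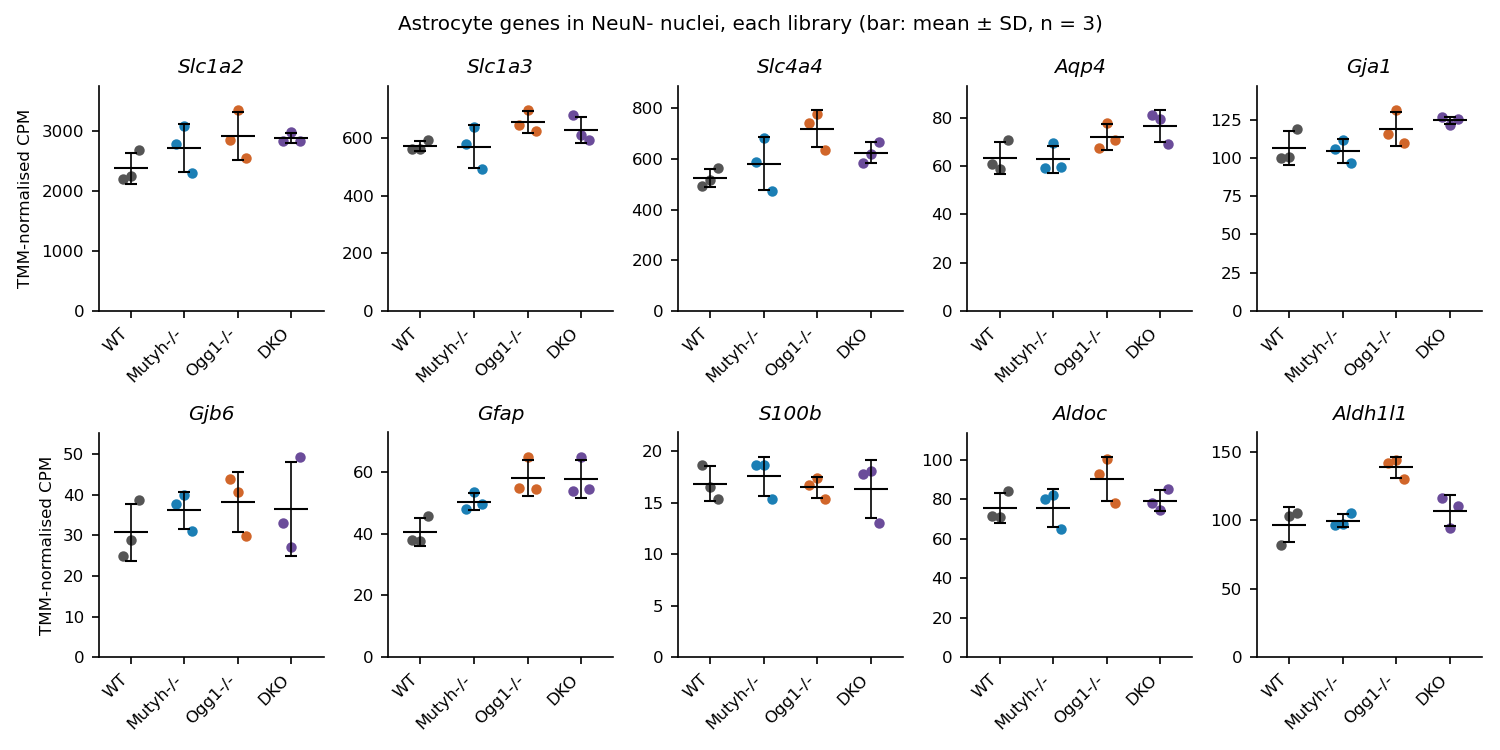
CPM (y axis, starting at 0) of each astrocyte gene in the 12 NeuN- libraries (points), by genotype (x axis), with the mean and SD of 3 libraries as bars. Aldh1l1 is higher in Ogg1-/- (130 to 144) than in WT (82.3 to 105), Gfap is above the 3 WT libraries (37.7 to 45.7) in all knockouts, and S100b overlaps throughout.

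**Figure D3:**
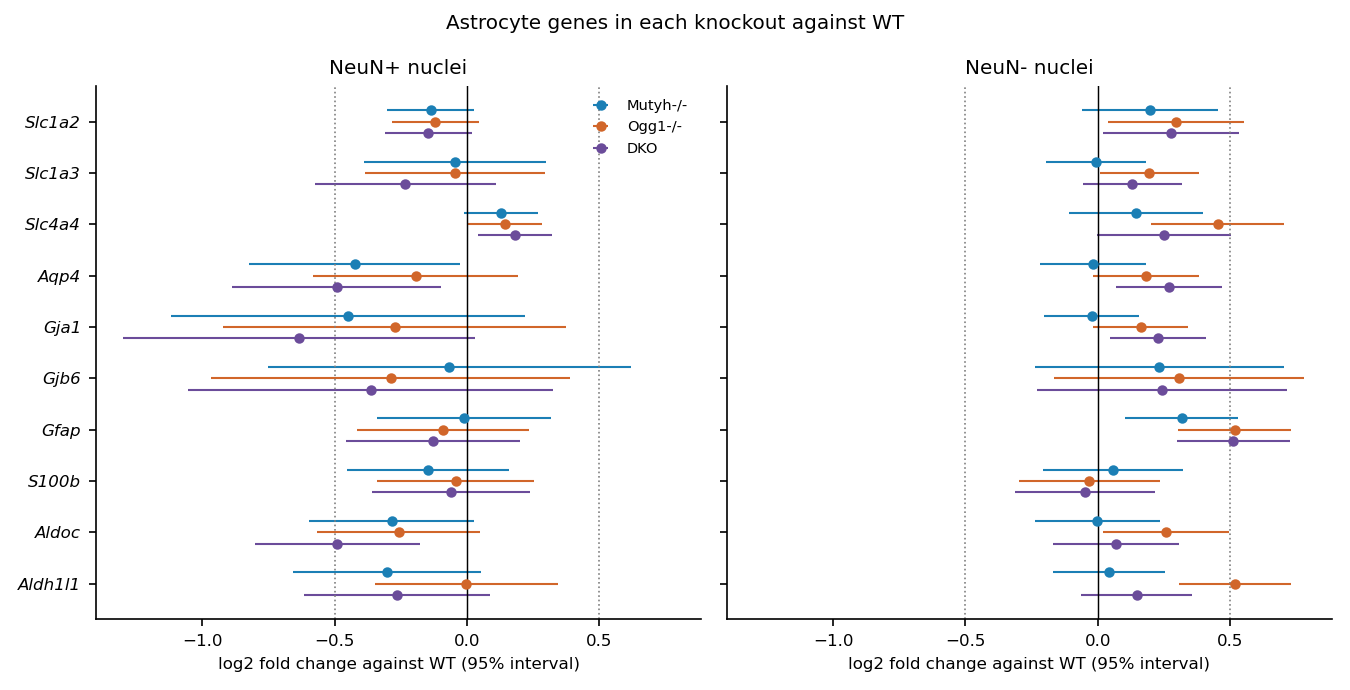
Log2 fold change against WT (x axis, points with 95% intervals from edgeR) of each astrocyte gene (y axis) in NeuN+ (left) and NeuN- nuclei (right), by knockout (colours). Most points lie left of 0 in NeuN+ and right of 0 in NeuN-, and only Aldh1l1 in Ogg1-/- NeuN- nuclei passed both limits, the limit on size being the dotted lines at 0.5 and -0.5.

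Summed levels of markers of other cells differed between genotypes in NeuN- nuclei as well. The summed level of the 10 genes lay, on the joint scale, between 3349 and 3958 CPM in WT. It lay between 3391 and 4505 in Mutyh-/-, between 3944 and 4975 in Ogg1-/- and between 4216 and 4309 in DKO. The 8 neuron markers summed to 584 to 655 in WT, 508 to 577 in Ogg1-/- and 490 to 552 in DKO, and all 8 had negative log2 fold changes in both genotypes (4 and 5 at an unadjusted p under 0.05, none called). The sum of 5 oligodendrocyte markers, the genes of myelin, was 5911 to 6645 in WT, 5045 to 5667 in Ogg1-/- and 4501 to 5578 in DKO, with all 5 negative in both genotypes and none called. Both sums were thus lower in every Ogg1-/- and DKO library than in any WT library. In Mutyh-/- the neuron sum was 568 to 604 and the oligodendrocyte sum 5505 to 6765, overlapping with WT.

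The microglia sum overlapped between WT (472 to 556) and Ogg1-/- (451 to 500) or DKO (426 to 541). The endothelial sum was 19.1 to 21.2 CPM in WT, 16.1 to 19.0 in Ogg1-/- and 16.6 to 28.2 in DKO, and did not overlap between WT and Ogg1-/-. The sum of 3 precursor markers was 479 to 539 in WT and lower in every DKO library (445 to 465), and overlapped with WT in Mutyh-/- and Ogg1-/-. The part of the neuron, oligodendrocyte, precursor, endothelial and choroid plexus sums in the values of the astrocyte genes was not tested. Markers of choroid plexus and ependyma varied widely between libraries, with sums of 33.9 to 56.5 CPM in WT, 20.9 to 23.4 in Mutyh-/- (below every WT library), 11.1 to 87.1 in Ogg1-/- and 11.6 to 186 in DKO.

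**Figure D4:**
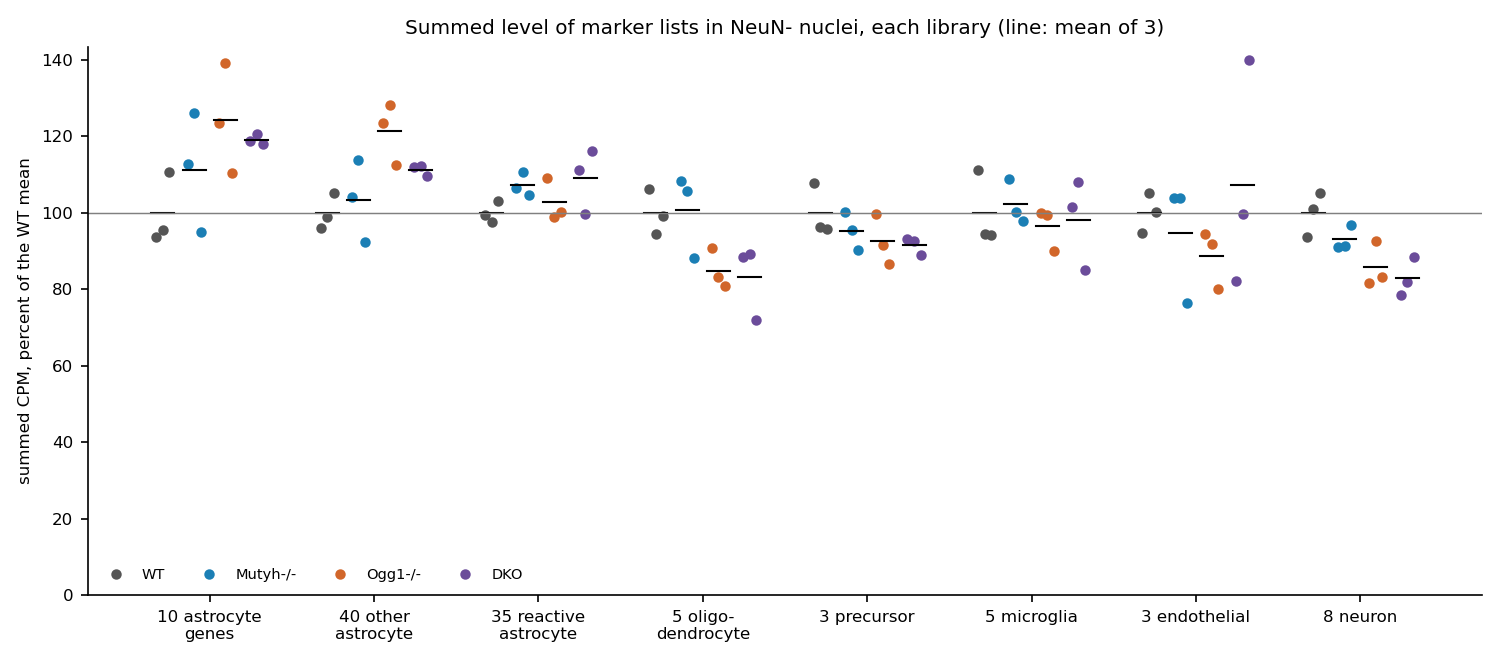
Summed CPM of marker lists in the 12 NeuN- libraries, as a percent of the WT mean of the same list (y axis, starting at 0), by list (x axis) and genotype (colours), with lines at the mean of 3. The 10 astrocyte genes lie at 110 to 139 in Ogg1-/- and 118 to 121 in DKO, where the neuron markers lie at 81.5 to 92.6 and 78.6 to 88.5.

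In NeuN+ nuclei none of the 10 genes was called in any knockout, where 0.428%, 0.574% and 0.302% of the 30132 genes tested were called in Mutyh-/-, Ogg1-/- and DKO. DESeq2 called none either, and at an unadjusted p under 0.05 edgeR gave Aqp4 lower in Mutyh-/-, Slc4a4 higher in Ogg1-/-, and Slc4a4 higher and Aldoc and Aqp4 lower in DKO. At that p 9.21% of all genes were lower in Mutyh-/-, 5.01% higher in Ogg1-/-, and 5.98% higher and 7.51% lower in DKO. Log2 fold changes were negative for 9 of the 10 genes in each knockout, with medians of -0.14, -0.10 and -0.25, against 48.1%, 52.2% and 49.9% of all genes with a positive sign. Slc4a4 was the positive one each time, at 0.13, 0.14 and 0.18 (adjusted p 0.311, 0.394 and 0.246). Over the alternatives the medians ran from -0.19 to -0.10, from -0.22 to -0.05 and from -0.38 to -0.17.

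Markers of other glia also had negative values in NeuN+ nuclei of DKO. Of the 5 oligodendrocyte markers 4 were negative there (median -0.43, 3 lower at an unadjusted p under 0.05), and all 3 markers of oligodendrocyte precursors were (median -0.47, 2 lower), with none called. Their summed levels overlapped with WT, at 118 to 132 CPM against 119 to 123 for the oligodendrocyte markers and 16.8 to 17.6 against 17.3 to 19.3 for the precursors. These sums rest mainly on Mbp and Vcan. In WT NeuN+ nuclei Mbp held 97.6 CPM of a mean sum of 121 and Vcan 15.5 of 18.3, so the sums say little about the other markers. In Mutyh-/- the medians of these lists were -0.19 and -0.14 and in Ogg1-/- 0.01 and -0.20, and the 4 microglia markers tested had medians of 0.05, 0.02 and 0.03 in Mutyh-/-, Ogg1-/- and DKO. The part of other glia in the NeuN+ values of the 10 genes was not tested.

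Aldoc in DKO had the smallest p of the 30 values. It had 6.73, 7.22 and 5.99 CPM in WT NeuN+ and 4.38, 5.45 and 4.37 in DKO, with no overlap, a log2 fold change of -0.49 (95% interval -0.80 to -0.18, adjusted p = 0.156). Aqp4 had 2.85, 2.98 and 2.43 CPM in WT and 1.83, 2.37 and 1.67 in DKO, also without overlap (-0.49, adjusted p = 0.261), and 1.94, 2.11 and 2.1 in Mutyh-/- (-0.42, adjusted p = 0.242). In DKO 2 of the 10 genes were lower without overlap, in Mutyh-/- 1 and in Ogg1-/- 0, against 9.49%, 10.8% and 10.2% of all genes.

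The connexins had wide intervals in NeuN+ nuclei. Gja1 had 3.64, 2.56 and 2.01 CPM in WT and 1.37, 2.46 and 1.46 in DKO, which overlapped, with a log2 fold change of -0.63 (-1.30 to 0.03). Gjb6 in Ogg1-/- ranged from 0.304 to 0.795 CPM. One library, Ogg1-/- replicate 1, was the highest of its group for Aqp4, Gfap, Slc1a2, Slc1a3, Aldh1l1, Gja1, Gjb6 and Aldoc, and its values (3.31 CPM for Aqp4 and 3.67 for Gja1) exceeded those of every WT library for both genes.

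**Figure D5:**
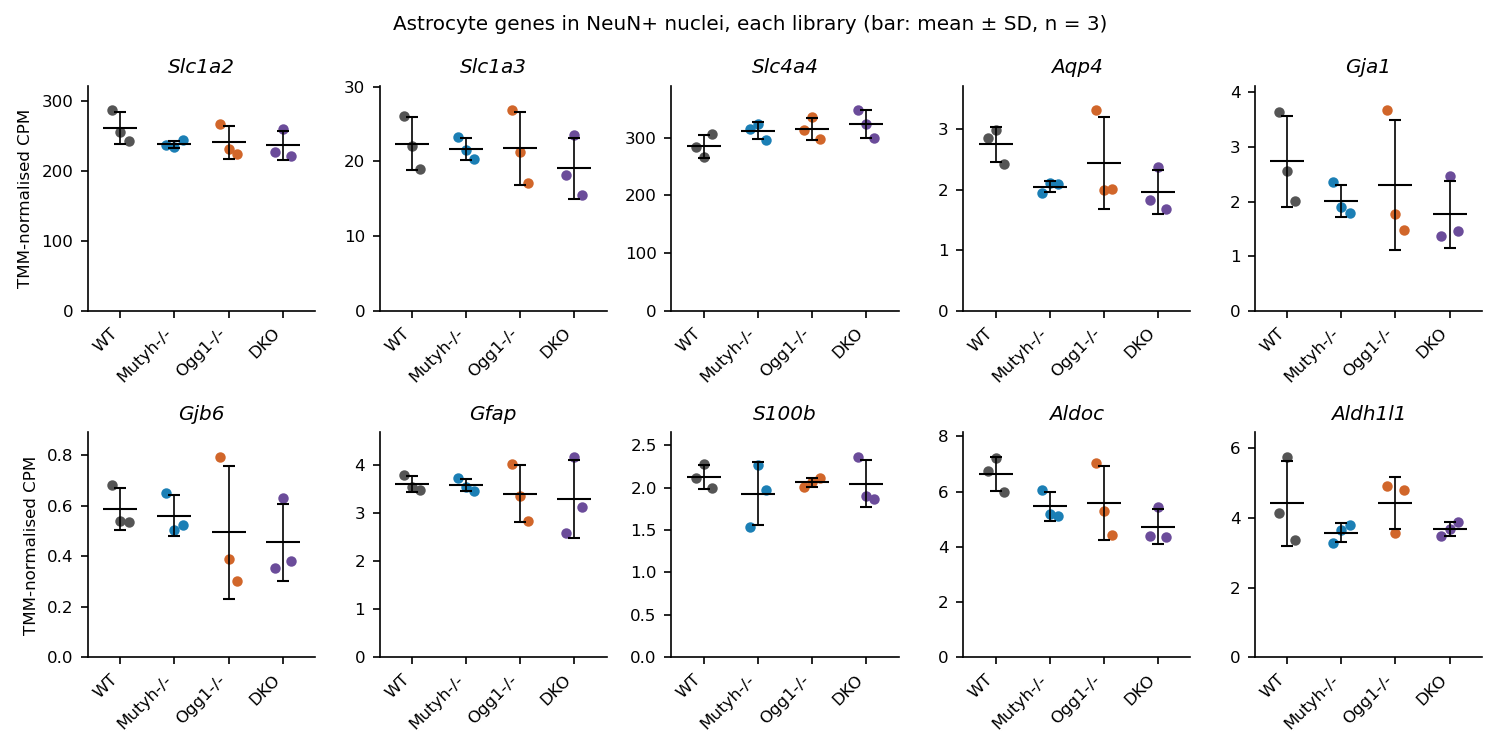
CPM (y axis, starting at 0) of each astrocyte gene in the 12 NeuN+ libraries (points), by genotype (x axis), with the mean and SD of 3 libraries as bars. Aldoc (4.37 to 5.45) and Aqp4 (1.67 to 2.37) in DKO lie below WT without overlap, and the other 8 genes overlap in DKO.

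The knockouts were also compared with each other. In NeuN- nuclei none of the 10 genes was called in any of the 3 pairs, where 0.521% of all genes were called between Ogg1-/- and Mutyh-/-, 0.122% between DKO and Mutyh-/- and 0.132% between DKO and Ogg1-/-. At an unadjusted p under 0.05 5 of the 10 were higher in Ogg1-/- than in Mutyh-/-, 2 higher in DKO than in Mutyh-/- and 1 lower in DKO than in Ogg1-/-, against 5.9%, 5.79% and 2.18% of all genes, and DESeq2 called none. In Ogg1-/- and in DKO 2 of the 10 genes each were higher than in Mutyh-/- without overlap, against 8.05% and 6.83% of all genes. Aldh1l1 was higher in Ogg1-/- than in Mutyh-/- without overlap and with an edgeR adjusted p of 0.0452. Its log2 fold change of 0.48 (0.27 to 0.69) lay under the limit of 0.5. Between DKO and Ogg1-/- the log2 fold change of Aldh1l1 was -0.37 (-0.58 to -0.16, adjusted p = 0.542), and its libraries, alone among the 10 genes, did not overlap in that pair (4.6% of all genes were lower without overlap). For Gfap the interval of the difference between DKO and Ogg1-/- was -0.22 to 0.21. In NeuN+ nuclei none was called in the 3 pairs by edgeR or DESeq2, where 0.485%, 0.139% and 0.216% of all genes were called by edgeR. None reached an unadjusted p under 0.05 there, against 6.57%, 3.4% and 1.47% of all genes higher and 6.09%, 3.45% and 2.79% lower.

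Whether a knockout acted differently in the 2 fractions was tested as an interaction, the effect in NeuN- minus that in NeuN+, in the fit over all 24 libraries. All 10 genes had positive values in each of the 3 knockouts, with medians of 0.33, 0.43 and 0.48 for Mutyh-/-, Ogg1-/- and DKO, against 52.7%, 48.4% and 50% positive over all genes. None reached an adjusted p under 0.05, where 0.0209%, 0.0537% and 0.0567% of all genes did. At an unadjusted p under 0.05 there were 1, 5 and 5 of the 10, all positive, against 4.64%, 3.04% and 4.76% of all genes. The smallest p was that of Aqp4 in DKO, with 0.76 (95% interval 0.32 to 1.19, adjusted p = 0.24), which DESeq2 called (adjusted p = 0.0432), the only gene of the 10 it called in the 3 interactions. Gfap had 0.63 in DKO (adjusted p = 0.274) and 0.60 in Ogg1-/- (adjusted p = 0.491), and S100b 0.00 in both.

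Within genotypes the 10 genes varied together to different degrees from library to library. Correlations were taken across the 12 NeuN- libraries after centring log2 CPM on the genotype mean, and describe libraries that share cells and depth. Of 45 pairs 42 were positive, with a median r of 0.46, the highest for Slc1a2 with Gja1 (r = 0.935) and for Aldoc with Slc4a4 (r = 0.895). Slc1a2, Gja1, Slc4a4, Slc1a3 and Aldoc each had a median r of 0.69 to 0.73 with the other 9 genes. Aldh1l1 (median r = 0.119) and S100b (0.141) stood apart, and the lowest pair was Aldh1l1 with S100b (r = -0.46). In NeuN+ nuclei 33 of 45 pairs were positive, and Gja1 with Gjb6 was the highest (r = 0.96), whereas Slc4a4 had a median r of -0.05 and S100b of -0.15 with the others.

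The genes whose deviations in NeuN- libraries were most like the mean of the 10 were sought among 21198 genes with a mean of at least 1 CPM. They were Gm13872 (r = 0.988), 9430041J12Rik (0.987), Myorg (0.971), Tnik (0.964) and Cadm1 (0.964), over 12 libraries. Gm13872 is an antisense gene inside Slc1a2 (chromosome 2, 102737907 to 102746760) that shares 189 exon bases with it, so its counts and those of Slc1a2 may hold the same reads. 9430041J12Rik, on chromosome 7, Tnik, which encodes a kinase, and Cadm1, which encodes a cell adhesion molecule, overlap none of the 10.

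Of the 40 other astrocyte genes, 35 had positive log2 fold changes in NeuN- nuclei of Ogg1-/-, with a median of 0.26. 22 were higher and 1 lower at an unadjusted p under 0.05, against 5.75% and 6.08% of all genes, and 1 was called, against 0.129% called higher. This was Slc7a10, which encodes an amino acid transporter of astrocytes (DESeq2 called 2). It had 120 ± 6.93 CPM in Ogg1-/- and 82.3 ± 1.49 in WT (log2 fold change 0.55, adjusted p = 0.00294). In DKO 33 of the 40 were positive (median 0.15, 15 higher and 1 lower at an unadjusted p under 0.05) and in Mutyh-/- 30 (median 0.07, 3 and 1), with none called by edgeR or DESeq2. At that p 6.06% of all genes were higher and 6.31% lower in DKO, and 6.78% and 6.9% in Mutyh-/-. Leaving out 1 library at a time and the other alternatives kept the median between 0.22 and 0.35 in Ogg1-/- and between 0.12 and 0.21 in DKO, whereas in Mutyh-/- it ran from -0.02 to 0.13.

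In NeuN+ nuclei the medians of the 40 were -0.21, -0.08 and -0.25 for Mutyh-/-, Ogg1-/- and DKO. At an unadjusted p under 0.05, 12 were lower and 3 higher in Mutyh-/-, 4 and 2 in Ogg1-/- and 8 and 1 in DKO. Of all genes 9.21%, 7.33% and 7.51% were lower at that p and 9.48%, 5.01% and 5.98% higher. The Ogg1-/- median turned to 0.01 without Ogg1-/- replicate 3 and was -0.23 without Ogg1-/- replicate 1, whereas that of Mutyh-/- ran from -0.30 to -0.16 and that of DKO from -0.37 to -0.18 over the alternatives. The 1 gene called was Slc25a18, which encodes a mitochondrial glutamate carrier, against 0.302% of all genes called in DKO. It was higher in DKO at 12.6 ± 1.26 CPM against 8.36 ± 0.927 in WT (log2 fold change 0.59, adjusted p = 0.00407). In Ogg1-/- NeuN+ nuclei it had 11.2 ± 0.0616 CPM (0.42, adjusted p = 0.0296), under the limit of 0.5. This gene lies on chromosome 6, 7.44 Mb from Ogg1, and whether its position bears on the value was not tested.

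Among 35 genes reported in reactive astrocytes, such as Vim, Serpina3n, Lcn2 and C3, 33 were tested in NeuN- nuclei and none was called in any knockout by edgeR, whereas DESeq2 called 4 in DKO and none in the single knockouts. In DKO 25 of the 33 were positive, with a median of 0.21 and 10 higher and 1 lower at an unadjusted p under 0.05, where 51.5% of all genes were positive, 6.06% higher and 6.31% lower. The DKO median was 0.20 to 0.38 over the alternatives, the latter without DKO replicate 2, and it was 0.36 without WT replicate 2. In Ogg1-/- 18 were positive with a median of 0.01 and 3 higher. In Mutyh-/- 23 were positive, with a median of 0.07 and 3 higher. Of all genes 50.2% were positive and 5.75% higher in Ogg1-/-, and 48.8% and 6.78% in Mutyh-/-. Levels were low: in WT NeuN- nuclei the highest by exon length were Stat3 (5.98 ± 0.3 FPKM) and Ggta1 (5.29 ± 0.251) and the lowest Cxcl10 (0.0199 ± 0.016) and Steap4 (0.0134 ± 0.00092). In NeuN+ nuclei 24 were tested, with medians of -0.06, 0.00 and -0.08. None was called by edgeR there, against 0, 1 and 1 called by DESeq2. Between the WT fractions 18 of 33 genes tested passed as higher in NeuN- and 3 as lower. Over all genes tested 21.6% passed as higher. The summed NeuN+ level of the list in WT was 57.4% of its NeuN- level. Of the mean NeuN+ sum of 132.5 CPM, Fkbp5 held 58.4 (34.3 in NeuN-), whereas 26 of the 33 genes had higher values in NeuN- and 7 lower.

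The last list held 30 genes of astrocyte metabolism and signalling. Among them were Apoe, the main lipid carrier of the brain, and Grm3, a glutamate receptor. None of the 30 was called in any knockout in either fraction by edgeR or DESeq2. Between the WT fractions 16 passed as higher in NeuN- and 3 as lower. Over all 33523 genes tested 21.6% passed as higher, and 7139 genes as lower. The summed NeuN+ level of the list in WT was 97.6% of its NeuN- level, but this share rests on few genes. Grm5 had 1687 CPM in NeuN+ against 183 in NeuN-, Gabrb1 851 against 529 and Gabra2 294 against 55.0. In WT 24 of the 30 genes had higher values in NeuN- and 6 lower, and Apoe had 11.9 CPM in NeuN+ against 334. In NeuN- nuclei 22 were positive in Ogg1-/-, 23 in DKO and 11 in Mutyh-/-, with medians of 0.08, 0.08 and -0.05. Over all genes 50.2%, 51.5% and 48.8% were positive in the same order. At an unadjusted p under 0.05, 8 were higher in Ogg1-/-, 5 higher and 1 lower in DKO, and 1 higher and 3 lower in Mutyh-/-. Of all genes 5.75%, 6.06% and 6.78% were higher at that p and 6.08%, 6.31% and 6.9% lower. In WT NeuN- nuclei Grm3 (238 ± 12.1 FPKM by exon length) and Apoe (156 ± 16.8) were the highest, and Adora2b (3.05 ± 0.153) and P2ry1 (0.392 ± 0.0512) the lowest. In NeuN+ nuclei the medians were -0.08, -0.03 and -0.04.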

How the data were processed

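The authors made the libraries from nuclear RNA with a stranded total RNA kit, used HISAT2 2.1.0 with the GRCm38 genome, and counted the pairs on Ensembl gene models with featureCounts. The strand setting, the treatment of overlapping genes and whether introns were counted are not given in the sources used here. The deposited values are raw counts, 1 column per library, for 55254 genes in each of 2 tables, and 0 columns lacked a sample.

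Counts were analysed with R 4.3.3, edgeR 4.0.16, limma 3.58.1 and DESeq2 1.42.0. Genes were filtered with filterByExpr, which left 30132 in NeuN+, 31863 in NeuN- and 33523 over both fractions, and scaled with TMM. All 4 genotypes of a fraction (12 libraries), or all 24 libraries for the comparison of fractions and the interactions, were fitted together with the quasi-likelihood test and Benjamini-Hochberg adjustment over all genes tested. The fitted variation between replicates (biological coefficient) was 0.0823 for the NeuN+ fit and 0.124 for the NeuN- fit. Intervals are at 95%. FPKM used exon and gene lengths of GENCODE's GRCm38 annotation. Sums and FPKM use the joint scaling. Scripts were tested on simulated data.

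All 10 genes were named in every comparison, and of the other lists only called genes and the 2 highest and lowest levels, the latter printed for WT NeuN- nuclei. The 5 genes most like the mean were named by r. Gm15756, Gm45901, Gm44236, Prox1, Kl, the 5 microglia genes, Mbp, Vcan, Fkbp5, Grm5, Gabrb1, Gabra2 and the libraries singled out were named after their values were seen. The members and lists were chosen with earlier results of these data known. Alternatives were DESeq2's size factors and Wald test, other filters on low counts, the likelihood ratio test, no fold limit, only the compared genotypes, a replicate block and each library left out.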

Additional observations from a re-analysis of the deposited data

How the results depend on the processing

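In 75 refits no called value changed direction, and the count of genes higher in NeuN- was 9 in each genotype under every alternative run, except 10 without the fold limit and, for Ogg1-/-, without its NeuN- replicate 3. Of 891 alternative values 840 stayed on the same side of their limit or within 1.5 times the count. A gene uncalled in both settings counted as staying whatever its sign, and most values were of this kind, so the number says little about single genes. Aldh1l1 in Ogg1-/- NeuN+ nuclei, with an edgeR adjusted p of 0.998, kept its sign in 6 of 13 alternatives. The count in NeuN- nuclei of Ogg1-/- was 1 and became 2 (Aldh1l1 and Gfap) without the filter on low counts, with at least 10 counts in every library, with the likelihood ratio test, with DESeq2 and with the 2 genotypes alone, and 0 to 1 with 1 library left out. Only without WT replicate 3 was it 1, and that gene was Gfap (adjusted p = 0.0268), not Aldh1l1. For DKO it went from 0 to 1 (Gfap) without the filter, with the likelihood ratio test and with DESeq2, and for the DKO interaction from 0 to 1 (Aqp4) with DESeq2. Between knockouts in NeuN- nuclei it went from 0 to 1 without the fold limit (Aldh1l1), and it was 0 to 1 with 1 library left out, the 1 being without Mutyh-/- replicate 3. The causes were not tested.

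Libraries of a genotype share replicate numbers across fractions and groups, but the labels do not say that a number marks the same animals. Same-numbered NeuN+ and NeuN- libraries of a genotype deviated together with a mean r of 0.142 (lowest 0.0189), over 0.1 in 8 of 12 pairs. For differently numbered ones the mean r was -0.0703, over 0.1 in 1 of 24 pairs. Across fractions, same-numbered libraries of a genotype were thus more alike. Same-numbered knockout and WT libraries had a mean r of -0.00926 in NeuN- and -0.0199 in NeuN+, so the numbers were not taken to pair genotypes. The main fit over all 24 libraries did not pair the fractions by number either. As an alternative, the replicate block in the fit over all 24 libraries paired them by number within each genotype. The smallest interaction p of the 10 genes was then that of Gfap in DKO (0.65, edgeR adjusted p = 0.113). With the replicate block the count in Ogg1-/- NeuN- nuclei stayed 1, but the gene was Gfap (adjusted p = 0.044) and not Aldh1l1 (0.0738), and the block changed no other count of the 10 genes.

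The lowest count of the 10 genes was 806 in a NeuN- library (S100b) and 25 in a NeuN+ library (Gjb6), and the effect of depth was not tested.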
